A study of Mus musculus with 21 samples.

Results

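Venous endothelial cells made up 617 of the 87822 cells captured from the tibialis anterior muscle of aged mice, beside 12614 capillary and 1702 arterial endothelial cells. They are the cells that carried the venous endothelial label after integration with Harmony, a method that aligns cells from different libraries. The study integrated and clustered these libraries together with public single-cell and single-nucleus datasets of mouse muscle, so the labels also depend on data outside this series. The study took the tibialis anterior of female C57Bl/6J mice, 20 months old, without injury (4 mice) or at 1 (4 mice), 2 (3 mice), 3.5 (4 mice), 5 (3 mice) and 7 (3 mice) days post-injury (dpi). Injury was made by injecting notexin, a venom phospholipase that destroys myofibers, into the muscle. Each library came from 1 mouse, and the replicates of a time point are written here as A to D. Whole muscle was dissociated with enzymes and profiled by single-cell RNA sequencing on the 10x Chromium platform with its version 3 chemistry, in which a unique molecular identifier (UMI) marks each captured transcript. The deposited tables give, for every cell, its type labels, its UMIs and genes, and the share of its UMIs that came from sets of genes. Values for single genes were not analysed here, so the venous label could not be checked against Pecam1, an adhesion molecule of all endothelium, Vwf, the von Willebrand clotting factor, or Icam1, a leukocyte adhesion molecule.

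Veins and postcapillary venules drain the capillary bed, and in inflamed tissue they are the main place where leukocytes leave the blood. Their endothelium stores von Willebrand factor and P-selectin and displays adhesion molecules such as Icam1, on which neutrophils and monocytes arrest before they cross the vessel wall. In regenerating muscle the same vessel bed supplies new capillary sprouts. The comparisons below ask how many venous cells were recovered at each time point, how firmly the label held, and how the transcript content of these cells changed with injury and differed from that of capillary and arterial cells.

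The libraries held between 5602464 and 70730171 UMIs, and venous cells numbered between 6 and 87 per mouse. In 10 of the 21 mice there were fewer than 20, so medians over venous cells rest on few cells there. Uninjured libraries stood apart from the rest in several technical values. They kept 39.9% ± 10.4 (SD, n = 4) of their barcodes after quality control, compared with a mean between 65.5% and 76.6% at the other time points, and 48.6% ± 5.60 (SD, n = 4) of their reads lay in cells, compared with 94.5% ± 0.265 (SD, n = 4) at 3.5 dpi. Sequencing saturation averaged 64.5% ± 16.9 (SD, n = 4) in uninjured libraries and 41.1% ± 6.96 (SD, n = 4) at 3.5 dpi. The part of these values in the results below was not tested. No venous barcode was shared among venous cells of different libraries, and 8 of the 617 barcodes also occurred in another library, in cells that were not venous.

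Venous cells were scarcest at 3.5 dpi, when all 4 mice lay below every uninjured mouse in the venous share of all cells. In uninjured muscle the share was 1.24%, 1.58%, 1.73% and 1.33% in replicates A to D. At 3.5 dpi it was 0.192%, 0.380%, 0.237% and 0.308%, and the smallest of these rests on 6 of 3131 cells, with an exact Clopper-Pearson 95% interval of 0.0704% to 0.417% that covers counting error only. The mean fell from 1.47% ± 0.226 (SD, n = 4) to 0.279% ± 0.0826 (SD, n = 4), a difference larger than the spread between mice (two-sided exact permutation test, p = 0.0286, adjusted p = 0.0481). This p is the smallest that 4 against 4 mice allow, and the adjustment covered all 23 Harmony types and 6 contrasts, of which 59.4% passed the threshold. Without any 1 of the 8 mice the adjusted p was between 0.0657 and 0.0917 and missed the threshold. The mice left in were still fully separated, and the adjusted p also depends on how many contrasts of other types reach the smallest p. These values therefore do not show a weaker venous difference.

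The share was higher again at 7 dpi. It was 1.16%, 0.707% and 1.41% in replicates A to C, all above the 4 mice of 3.5 dpi (two-sided exact permutation test, p = 0.0286, adjusted p = 0.0481). Without any 1 of these 7 mice the adjusted p was between 0.0979 and 0.138. Groups that small cannot give a p under 0.05, so these values do not test how firm the difference is. Against uninjured muscle, the 7 dpi mean of 1.09% ± 0.357 (SD, n = 3) did not pass the test (exact permutation test, p = 0.143, adjusted p = 0.171), and the 2 groups overlapped.

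The days in between varied widely from mouse to mouse. At 1 dpi the share was 0.481%, 2.01%, 0.199% and 0.495%, so that replicate B lay above every other mouse of the series and the other 3 below every uninjured mouse (exact permutation test against uninjured, adjusted p = 0.171, and 0.0464 without replicate B). At 2 dpi it was 0.303%, 0.261% and 1.26% (adjusted p = 0.0848, exact permutation test), and at 5 dpi 0.282%, 0.637% and 1.54% (adjusted p = 0.147, exact permutation test). In all, 13 of the 17 injured mice lay below the lowest uninjured mouse.

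**Figure D1:**
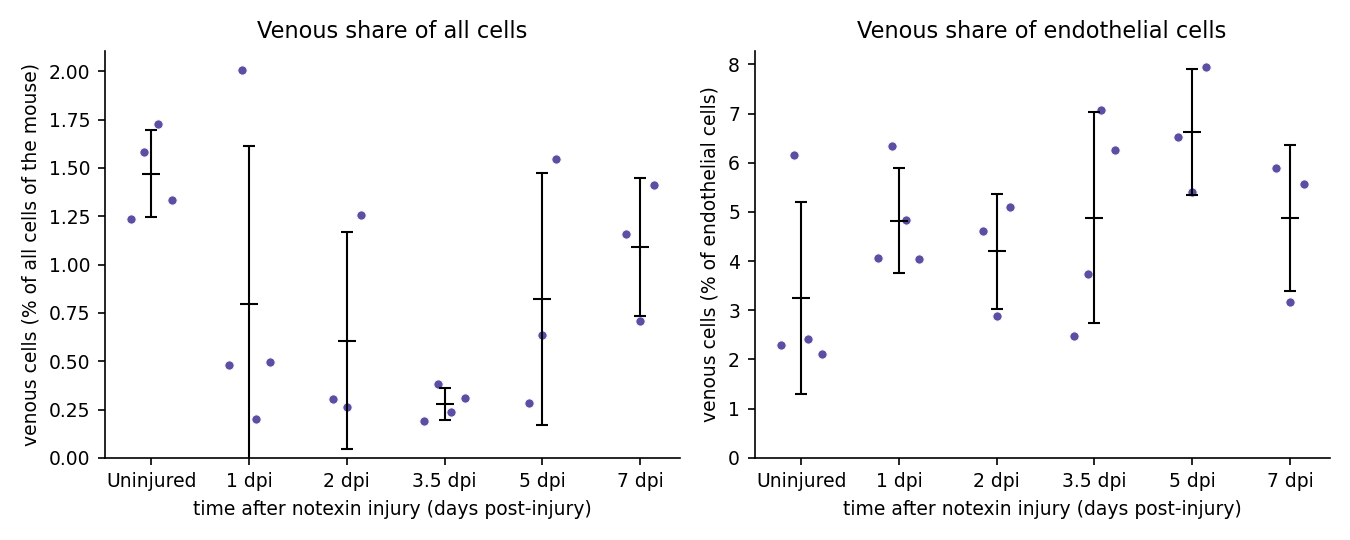
Each point is 1 mouse, placed by time after injury on the x axis, with its venous cells as a percent of all cells (left) or of all endothelial cells (right) on the y axis; the bars are the mean and SD over mice, and the bar at 1 dpi on the left is cut off at 0. The 4 mice of 3.5 dpi sit between 0.192% and 0.380% of all cells, below the uninjured mice at 1.24% to 1.73%, whereas on the right 3 uninjured mice sit between 2.12% and 2.42%, below all 17 injured mice, and the fourth at 6.16%.

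Over the 6 time points together, the venous share of all cells missed the threshold (permutation F test on 100000 draws, p = 0.054, adjusted p = 0.0592), in a series where 78.3% of the 23 types passed. Leaving out 1 mouse took it past the threshold for 1 dpi replicate B (adjusted p = 0.0111), 1 dpi replicate C (adjusted p = 0.0436), 2 dpi replicate C (adjusted p = 0.0321), 5 dpi replicate A (adjusted p = 0.0461) and 5 dpi replicate C (adjusted p = 0.0378). The capillary and arterial shares of all cells did change over time (adjusted p = 0.00572 and 0.000128). Capillary cells averaged 45.3% of cells in uninjured muscle and 5.64% at 3.5 dpi, and arterial cells 6.63% and 0.630%.

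A share of all cells moves with whatever else enters the muscle. Immune labels covered 2.71% ± 0.692 (SD, n = 4) of a mouse's cells before injury and 73.4% ± 4.28 (SD, n = 4) at 3.5 dpi. Among labelled cells that were not immune, venous cells made up 1.51% ± 0.234 (SD, n = 4) without injury, 2.27% ± 1.03 (SD, n = 3) at 2 dpi, 1.24% ± 0.350 (SD, n = 4) at 3.5 dpi and 1.57% ± 0.559 (SD, n = 3) at 7 dpi. With this denominator the largest difference from uninjured muscle was a higher value, by 0.753 percentage points at 2 dpi, and no change over time was detected (permutation F test, adjusted p = 0.689). From a share of all cells, fewer venous cells and more cells of other types cannot be told apart.

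Within the endothelium, the venous share had a higher mean at each time point after injury than before it, and the difference did not pass the test. The direction depended on the cells taken, as it was the opposite with BBKNN labels at 1 and 2 dpi and with the stricter filter on cells at 1, 3.5 and 7 dpi. That filter allows at most 15% mitochondrial UMIs. Venous medians exceeded this in uninjured replicates A and B (18.2% and 16.9%), and capillary medians in A, B and C (20.0%, 23.6% and 18.0%). No injured mouse had such a median in either label, so the filter removed more cells from uninjured mice. Uninjured replicates A, C and D had 2.30%, 2.42% and 2.12% of their endothelial cells labelled venous, whereas replicate B had 6.16%. All 17 injured mice lay above the 3 lower uninjured mice, and 5 of them lay above replicate B. The 3 mice of 5 dpi had the highest mean, at 6.52%, 5.41% and 7.95%, compared with a mean of 3.25% ± 1.95 (SD, n = 4) without injury. The difference of 3.37 percentage points did not pass the exact permutation test (p = 0.0857, adjusted p = 0.309 over 3 endothelial types and 6 contrasts), and neither did the change over all time points (permutation F test, adjusted p = 0.326). With Scanorama labels the change over time passed, with the opposite sign (adjusted p = 0.0249), but that method called only 48 cells venous in all mice. None of the 6 contrasts of the venous share of endothelium passed, and the smallest unadjusted p was that of 5 dpi. The arterial share of endothelium went the other way in its mean, from 13.6% without injury to 8.95% at 5 dpi, and did not pass either (permutation test, adjusted p = 0.10).

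Set directly against capillary cells, there were 37.1, 11.9, 35.4 and 41.5 capillary cells for each venous cell in uninjured replicates A to D, and 13.1, 15.7 and 10.4 in the mice of 5 dpi. Uninjured replicate B fell among the injured mice, which ranged from 10.4 to 35.2. On the log2 scale, with 0.5 cells added to each number, the venous to capillary ratio was 1.14 higher at 5 dpi than without injury. The ratio did not change detectably over time with all mice (permutation F test, adjusted p = 0.363), in a family where 50.0% of the 22 types tested against capillary cells passed. Without uninjured replicate B it passed (adjusted p = 0.0444), and the share of endothelium did not (adjusted p = 0.0575).

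The venous label depended on the integration method. BBKNN, another integration method applied to the same cells, called 353 of the 617 cells venous, 254 capillary and 5 arterial, and gave 5 cells labels outside the endothelium. The reverse held more closely, since 353 of the 367 cells that BBKNN called venous were venous by Harmony too. Scanorama, the third method, called only 35 of the 617 venous and 559 capillary, and 27 of these 35 cells came from uninjured mice. Across the other labels, 27 cells in 13 mice were placed outside the endothelium at least once, most often with Cx3cr1-low macrophages or with pericytes, the cells that wrap small vessels.

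How many cells kept the label differed widely between mice of the same time point. The part of a mouse's Harmony venous cells that BBKNN also called venous was 35.7%, 63.0%, 49.4% and 84.6% in uninjured replicates A to D. At 1 dpi it was 35.7%, 0%, 66.7% and 57.9%. Replicate B of 1 dpi, the mouse with the largest venous share of all, had 0 of 24 cells kept, which allows a share of up to 12.5%, and BBKNN called 22 of them capillary. In replicate C of 2 dpi, which also had a high share of all cells, 4 of 40 cells (10.0%) were kept. At 3.5 dpi the value was 66.7%, 90.0%, 75.0% and 100%, the highest mean of any time point at 82.9% ± 14.9 (SD, n = 4). No change over time was detected (permutation F test, adjusted p = 0.244), in a family in which 47.6% of 21 types passed.

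**Figure D2:**
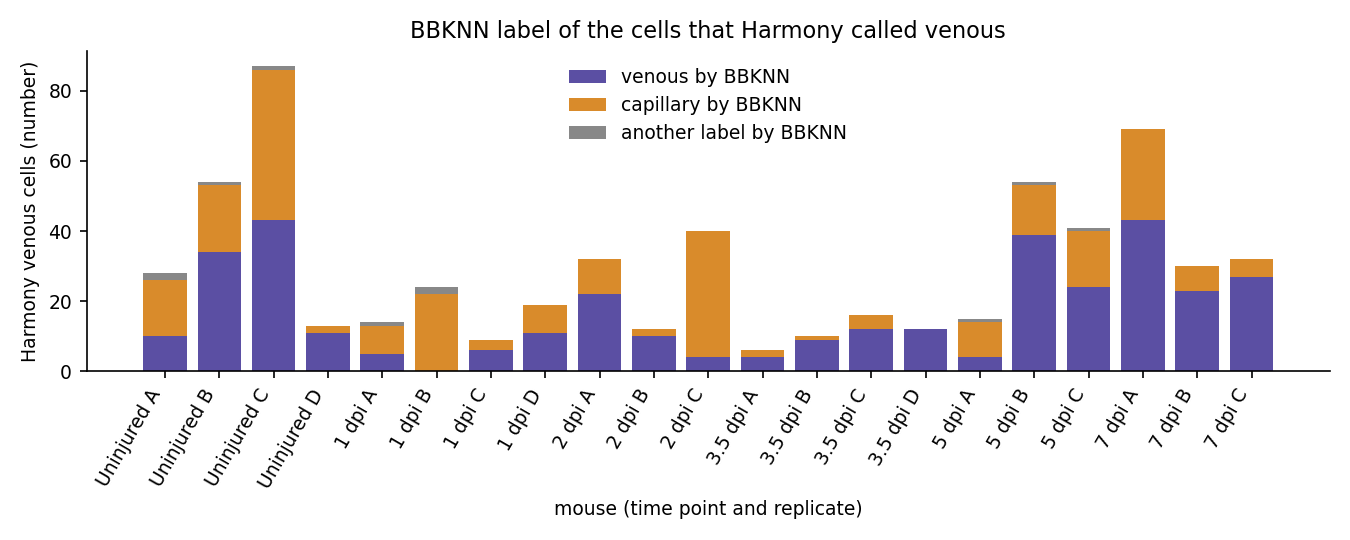
Each bar is 1 mouse, ordered by time point and replicate on the x axis, and its height is the number of cells that Harmony called venous, divided by the label that BBKNN gave them. The bar of 1 dpi replicate B holds 24 cells and none that BBKNN called venous, and that of 2 dpi replicate C holds 36 capillary calls among 40 cells, whereas all 12 cells of 3.5 dpi replicate D kept the venous label.

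With the venous cells of BBKNN in place of those of Harmony, the share of all cells changed over time (permutation F test, adjusted p = 0.00687), with the largest difference again at 3.5 dpi, 0.726 percentage points below uninjured muscle. The single contrasts of 3.5 dpi against uninjured muscle and of 7 dpi against 3.5 dpi then missed the threshold, at an adjusted p of 0.0503 each by the exact permutation test. Their unadjusted p was still the smallest that these group sizes allow. In 11 mice there were at least 5 cells in each class, and there the venous cells that BBKNN kept had fewer UMIs than those it called capillary in 9 mice, by 0.28 on the log2 scale on average (SD 0.58).

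Inside venous cells, heat shock transcripts had their highest share at 1 dpi. Heat shock proteins are chaperones that hold and refold proteins under stress. Their median share of the UMIs of a venous cell was 0.571%, 0.819%, 0.743% and 0.625% in uninjured replicates A to D. At 1 dpi it was 1.48%, 1.46%, 1.31% and 1.03%, so the lowest mouse of 1 dpi lay above the highest uninjured mouse. From 2 dpi on, all 13 mice lay between 0.599% and 0.912%, below every mouse of 1 dpi. The mean at 1 dpi was 1.91 times that of uninjured mice, and the share changed over time (permutation F test, adjusted p = 0.0145). Of the 14 measures of a cell's transcripts, 3 passed this test in venous cells, compared with 32.0% of all 322 combinations of type and measure, so this count is below that of the series. The paper reports that dissociation stress genes, and a heat shock gene, were detected more in dissociated cells than in isolated nuclei. The part of dissociation in the heat shock share was not tested.

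Capillary cells were also highest at 1 dpi. Their heat shock share averaged 0.626% ± 0.0480 (SD, n = 4) without injury and 1.22% ± 0.232 (SD, n = 4) at 1 dpi, and it changed over time (permutation test, adjusted p = 0.0147). Later the types diverged in their means, as capillary cells had 0.983% ± 0.0724 (SD, n = 4) at 3.5 dpi and venous cells 0.750% ± 0.0531 (SD, n = 4). In all 4 mice of 3.5 dpi the venous share was lower than the capillary share. The difference between the types did not change detectably over time (permutation F test, adjusted p = 0.126). In arterial cells the share rested on wider spreads, 0.849% ± 0.296 (SD, n = 4) without injury and 1.15% ± 0.250 (SD, n = 4) at 1 dpi, and no change was detected (permutation test, adjusted p = 0.751). Over all types measured at both times, the shares of 1 dpi and uninjured mice did not overlap in 8 of 19 (42.1%), 7 of them with higher values at 1 dpi.

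Mitochondrial transcripts, which encode subunits of the respiratory chain and are commonly used to filter cells, took a smaller share of venous UMIs after injury. The medians were 18.2%, 16.9%, 13.0% and 8.83% in uninjured replicates A to D. At 1 dpi they were 4.91%, 8.02%, 5.64% and 4.96%, all below the lowest uninjured mouse. They were 6.38%, 9.80% and 8.58% at 2 dpi, and 9.27%, 6.81%, 5.77% and 6.78% at 3.5 dpi. The 3 mice of 5 dpi lay at 7.29%, 6.73% and 7.40%, and those of 7 dpi at 8.74%, 9.75% and 11.3%, so 13 of the 17 injured mice were below every uninjured mouse. The share changed over time (permutation F test, adjusted p = 0.0164), with a mean of 14.2% ± 4.22 (SD, n = 4) without injury and 5.88% ± 1.46 (SD, n = 4) at 1 dpi. With only the cells that both Harmony and BBKNN called venous, it did not pass (adjusted p = 0.088).

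The same was seen in the other vessel labels and in the libraries as a whole. Capillary cells averaged 17.8% ± 6.00 (SD, n = 4) without injury and 6.75% ± 2.26 (SD, n = 4) at 1 dpi, and their share changed over time (permutation F test, adjusted p = 0.0146). Arterial cells averaged 15.1% ± 5.01 (SD, n = 4) and 6.73% ± 2.73 (SD, n = 4), and changed as well (permutation F test, adjusted p = 0.0324). Over all cells of a library the median averaged 14.8% ± 4.49 (SD, n = 4) without injury and 4.12% ± 1.29 (SD, n = 4) at 1 dpi. Without injury, venous cells had a lower mitochondrial share than capillary cells in each of the 4 mice, by 3.53 percentage points on average (SD 2.79), and at 7 dpi a higher one on average, by 1.62 points (SD 1.81, n = 3). Over all time points the venous median was the lower in 13 of 21 mice, by 0.484 points on average (SD 2.37), but against capillary cells matched on UMIs it was the higher in 18 of 21, by 1.12 points (SD 1.27). The difference without matching did not change detectably over time with all mice (permutation F test, adjusted p = 0.125), and it passed without uninjured replicate D (adjusted p = 0.0458). None of the 14 measures passed this permutation test for the venous minus capillary difference, and 4 (UMIs, genes, mitochondrial and heat shock share) had an unadjusted p under 0.05. Of 308 combinations of type and measure set against capillary cells in the same way, 19.8% passed.

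The protein-coding share, the part of UMIs that the study assigned to genes that encode proteins, was the third measure that changed over time (permutation F test, adjusted p = 0.0276). Some noncoding sets are described among the other observations, and the rest of the UMIs was not otherwise broken down. In uninjured replicates A to D it was 86.5%, 89.7%, 87.6% and 87.5%, and at 3.5 dpi it was 91.0%, 91.6%, 93.5% and 93.0%, above every uninjured mouse. By 7 dpi it was 90.3%, 87.9% and 87.3%, below every mouse of 3.5 dpi and overlapping the uninjured mice. The call was close to the threshold: without 1 mouse it was lost for uninjured replicate A (adjusted p = 0.0569), C (0.0572) and D (0.0506) and for 3.5 dpi replicates C (0.0515) and D (0.054). It was lost as well with means over cells in place of medians (adjusted p = 0.0789) and with only the cells that both Harmony and BBKNN called venous (adjusted p = 0.0697). In capillary and arterial cells the measure did not pass (permutation test, adjusted p = 0.0848 and 0.108), with means 4.90 and 4.10 percentage points higher at 3.5 dpi than without injury. The venous mean was 4.45 points higher, between these values. The venous minus capillary difference did not change detectably over time (permutation F test, adjusted p = 0.598). Over all cells of a library the median lay between 86.8% and 89.8% in uninjured mice and between 93.9% and 94.6% at 3.5 dpi.

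**Figure D3:**
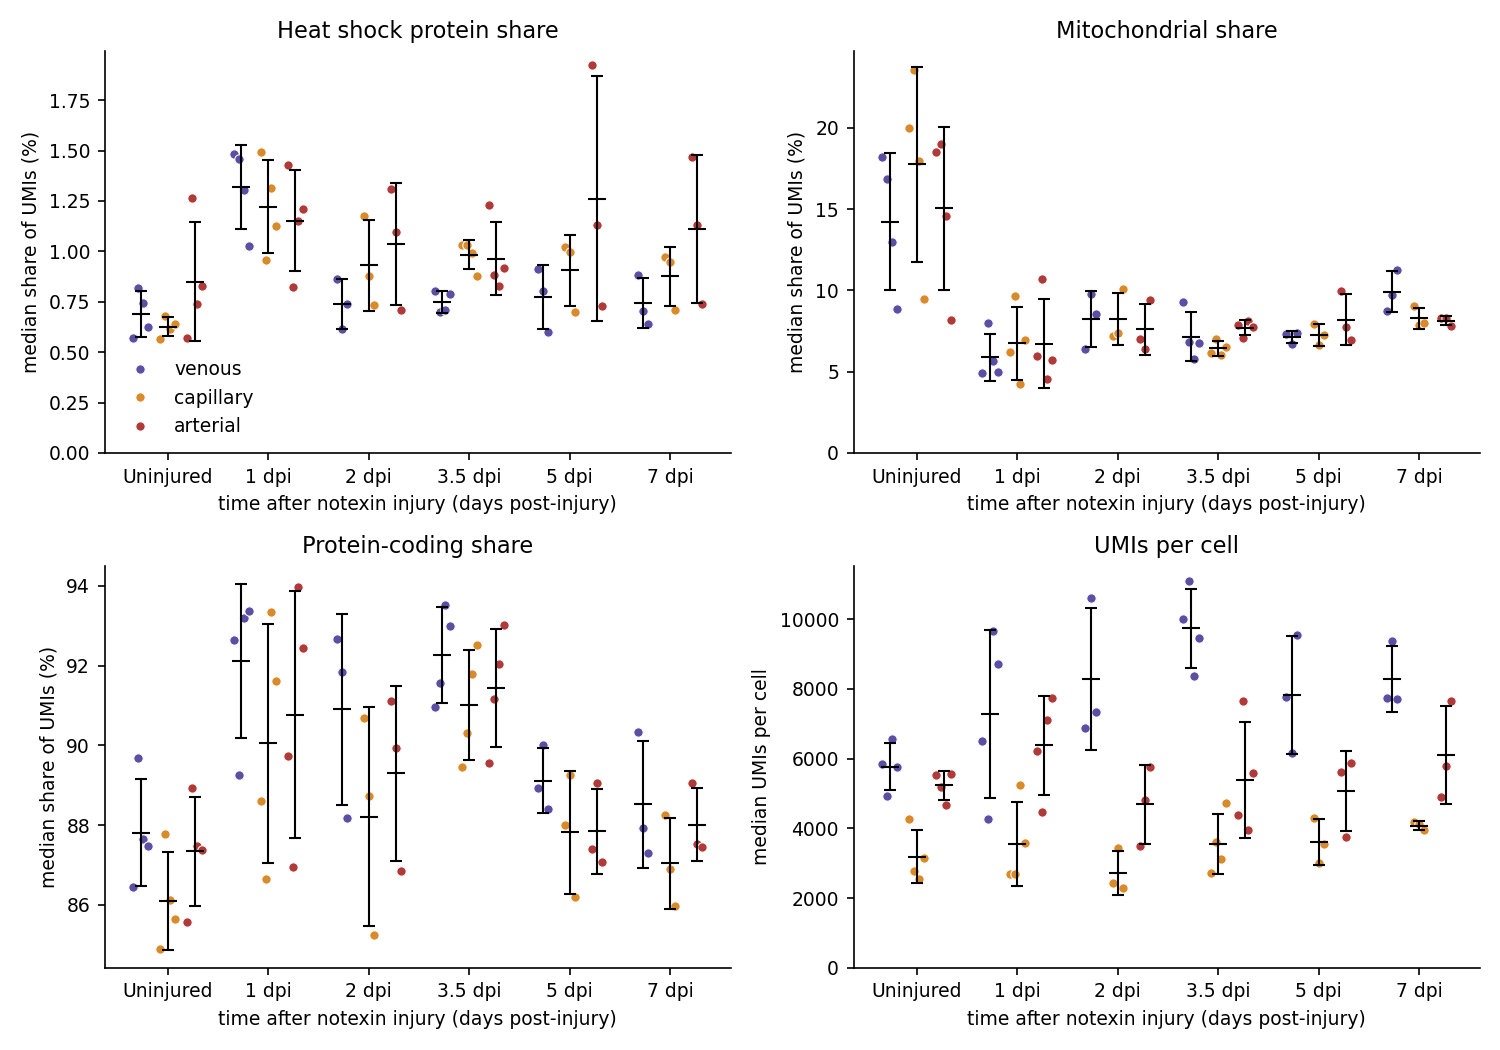
Each point is the median over the venous, capillary or arterial cells of 1 mouse, by time after injury on the x axis, with the mean and SD over mice as bars; the y axes give the share of UMIs in percent or the number of UMIs, and the protein-coding axis does not start at 0. Venous and capillary cells have their highest mean heat shock share at 1 dpi, the mitochondrial share of all 3 labels has its highest mean in uninjured mice, and venous cells have the most UMIs of the 3 labels on average at every time point.

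UMIs and genes per venous cell were higher in most injured mice than in uninjured ones, short of the threshold. The median number of UMIs was 5838, 4934, 6548 and 5769 in uninjured replicates A to D and 10004, 11084, 8375 and 9468 at 3.5 dpi, and 14 of the 17 injured mice lay above the highest uninjured mouse. The median number of genes was 2183, 1872.5, 2303 and 2086 without injury and 3118, 3124, 3043 and 3085.5 at 3.5 dpi, and 16 of the 17 injured mice lay above the highest uninjured mouse. Neither UMIs (permutation F test, adjusted p = 0.149) nor genes (adjusted p = 0.0621) passed with all mice, and genes passed without 1 dpi replicate B (adjusted p = 0.0171) or C (adjusted p = 0.042). With all mice, UMIs passed with means over cells in place of medians (adjusted p = 0.0428), and genes with only the cells that both Harmony and BBKNN called venous (adjusted p = 0.0478). Under a stricter filter on cells, the largest difference of either measure had the opposite sign. That filter sets floors on genes and UMIs themselves and allows at most 15% mitochondrial UMIs. The venous medians of uninjured replicates A and B lay above that limit (18.2% and 16.9%), so most of their venous cells were removed. All injured venous medians lay below it, at up to 11.3%, so the filter does not treat the groups alike. Over all cells of a library, whatever their type, the median number of UMIs averaged 3906 ± 685 (SD, n = 4) in uninjured libraries and 12086 ± 2765 (SD, n = 4) at 3.5 dpi. The UMIs of capillary cells in the same libraries did not change detectably over time (permutation F test, adjusted p = 0.476). The part of these values in the venous course was not tested.

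Single time points were also set against each other for all 14 measures, a comparison chosen after the data had been seen. Of 1652 such exact permutation tests over all types, 0.00% passed after adjustment and 316 had an unadjusted p under 0.05. With these group sizes no p can lie below 0.0286, so passing needed far more than 316 tests at that value. The adjusted p therefore cannot decide about any single contrast here. In venous cells, 17 of 84 (20.2%) had an unadjusted p under 0.05, near the 19.1% of all 1652 tests. The smallest adjusted p was 0.149. Any p under 0.05 equals 0.0286 with these group sizes, so all 17 share that value. The heat shock share and the mitochondrial share at 1 dpi are among the 17, and this p does not set them apart.

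More transcripts were captured from venous cells than from the other endothelial cells of the same mouse. The 3 labels were assigned from the same transcripts, so these differences describe the labels and carry no test. The median venous cell had more UMIs than the median capillary cell in 21 of 21 mice, 2.26 times as many on average, from 1.36 to 3.64 times. In 19 of the 21 mice even the lower quartile of venous cells lay above the capillary median. Over mice the venous median averaged 7822 ± 1899 (SD, n = 21), the capillary median 3447 ± 813 (SD, n = 21) and the arterial median 5507 ± 1245 (SD, n = 21). Arterial cells had fewer UMIs than venous cells in 19 of 21 mice, and venous cells had 1.41 times as many on average.

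The difference from capillary cells had its highest mean at 2 dpi. On the log2 scale it averaged 0.88 ± 0.37 (SD, n = 4) without injury, 1.60 ± 0.09 (SD, n = 3) at 2 dpi, 1.47 ± 0.36 (SD, n = 4) at 3.5 dpi and 1.01 ± 0.15 (SD, n = 3) at 7 dpi. That course did not pass the test (permutation F test, adjusted p = 0.133). The doublet score that the study assigned to each cell, which is higher for cells that look like merged pairs, was also higher in venous than in capillary cells in 20 of 21 mice, with means of 0.238 and 0.163. It was higher in 18 mice, by 0.0347 on average (SD 0.0376), when capillary cells of equal UMIs were taken. All 617 venous cells had been called single cells, which follows from the removal of putative doublets before integration. The part of the score in the difference was not tested.

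A larger part of the transcripts of venous cells came from ribosomal protein genes, which encode the protein parts of the translation machinery. The venous median was higher than the capillary median in 20 of 21 mice, by 5.23 percentage points on average (SD 2.01), with means of 14.0% and 8.80%. The exception was 1 dpi replicate C, at 12.0% in venous and 12.7% in capillary cells. The venous median was higher than the arterial one in 21 of 21 mice, by 4.24 points (SD 1.67). Against capillary cells with a number of UMIs within 10%, found for 604 of the 617 venous cells, the difference was 3.12 points (SD 1.54) and positive in 20 mice. No change over time was detected, whether in the venous share (permutation test, adjusted p = 0.381) or in its difference from capillary cells (adjusted p = 0.986).

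Transcription factor genes, which encode the proteins that switch other genes on and off, took a smaller share in venous cells. The venous median averaged 3.96% of UMIs, compared with 5.03% in capillary and 5.48% in arterial cells. It was lower than the capillary median in 19 of 21 mice, by 1.07 points on average (SD 0.629), and lower than the arterial median in 21 of 21, by 1.52 points (SD 0.449). Uninjured replicate B, at 4.62% in venous and 4.18% in capillary cells, and 7 dpi replicate A, at 5.45% and 5.38%, were the exceptions. With capillary cells matched on UMIs the venous share was lower in 21 of 21 mice, by 0.944 points (SD 0.486). Over time the venous share did not pass the test (permutation test, adjusted p = 0.108). It passed without 7 dpi replicate C (adjusted p = 0.0465), and also under a stricter filter on cells (adjusted p = 0.0373), where the largest difference from uninjured muscle had the opposite sign. That filter removed most venous cells of uninjured replicates A and B, as described above.

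Relative to their UMIs, venous cells expressed slightly fewer genes. Genes per cell at given UMIs, the difference on the log2 scale from a curve fitted to all cells, was lower in venous than in capillary cells in 19 of 21 mice, by 0.06 on average (SD 0.04), and lower than in arterial cells in 20 of 21. Without this correction, venous cells had more genes than capillary cells in 21 of 21 mice, 1.68 times as many on average. Against capillary cells of equal UMIs that turned round, to 0.975 times as many, with fewer genes in 20 mice. The corrected measure changed over time in capillary and arterial cells (permutation test, adjusted p = 0.0354 and 0.0096). In venous cells it did not pass (permutation test, adjusted p = 0.254), and its largest difference was 0.10 on the log2 scale at 2 dpi. The difference between the venous and capillary courses did not pass either (permutation test, adjusted p = 0.80).

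**Figure D4:**
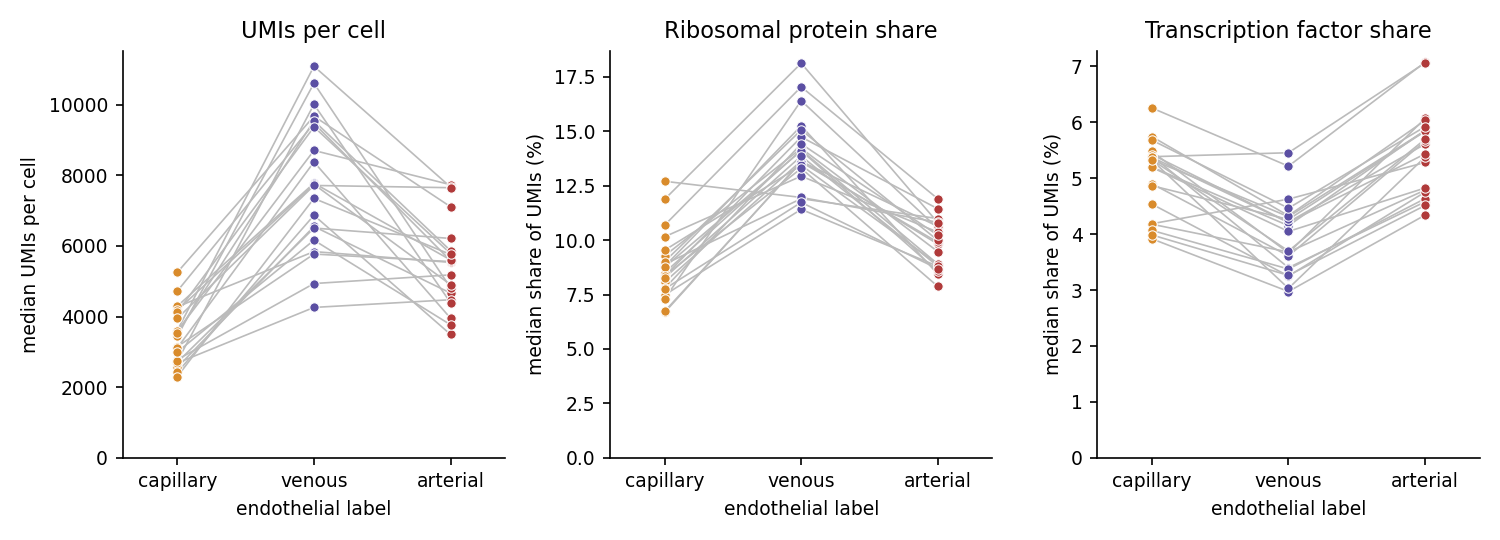
Grey lines join the medians of the capillary, venous and arterial cells of the same mouse (21 mice), with UMIs per cell on the left and the percent of UMIs from ribosomal protein and transcription factor genes in the middle and on the right. Venous cells stand above capillary cells in UMIs in 21 mice and in ribosomal protein share in 20, and below arterial cells in transcription factor share in 21.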

How the data were processed

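Per-cell tables of 21 single-cell libraries were used, 1 per mouse. Per the labels, reads were aligned to mm10 with Cell Ranger 3.1.0 and analysed with Seurat 3.1.5. The authors then corrected for free RNA (SoupX), dropped cells with few genes or transcripts or many mitochondrial transcripts, removed doublets and named clusters after integration by Harmony, BBKNN and Scanorama. The UMIs of each cell, as deposited by the authors, are expected counts, no longer whole after the ambient correction and not normalized. Genes per cell, and the barcodes and reads of each library, were deposited as plain counts. The gene-set values were deposited by the authors as a percent of a cell's UMIs, with saturation and reads in cells as a percent per library; the genes of each set are not given in the sources used here. SoupX contamination and the doublet score were deposited by the authors as a fraction.

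Cells were taken by their Harmony label, with no further filter. The members and the measures were chosen with earlier results of these data known. A mouse entered a per-cell measure with at least 5 cells of a type, by the median over cells (the mean for sets at 0 in most mice). Shares were transformed by arcsine square root. Time courses were tested by permuting time points 100000 times, and single contrasts by two-sided exact permutation tests, with Benjamini-Hochberg adjustment over all Harmony types, measures and contrasts and a threshold of 0.05. Genes at given UMIs are residuals of a polynomial of degree 3. The measures named are UMIs, genes, those past the threshold in venous cells and the 3 with the largest venous minus capillary difference. Alternatives were other labels, filters (at least 1000 genes, 2000 UMIs and at most 15% mitochondrial UMIs), scales, denominators, minimums of cells and single mice left out, and edgeR 4.0.16 quasi-likelihood tests on cell numbers (R 4.3.3). The comparison of single time points for per-cell measures was added after the data had been seen. The tests were first run on simulated data. Python 3.11.15, numpy 2.4.6, pandas 2.3.3, scipy 1.17.1 and matplotlib 3.10.9 were used.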

Additional observations from a re-analysis of the deposited data

Results flagged for a closer look

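In the venous share of all cells, 1 dpi replicate B stood at 2.01%, whereas the other 3 mice of that time point lay between 0.199% and 0.495%. The gap to the nearest of them took 0.836 of the range of the group, above the 95% critical value of Dixon's test. None of its 24 venous cells kept the venous label under BBKNN. Immune labels covered 37.5% of the cells of this mouse and between 67.6% and 73.1% in the other 3 mice of 1 dpi.

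In the venous share of endothelial cells, uninjured replicate B stood at 6.16%, whereas the other 3 uninjured mice lay between 2.12% and 2.42%, a gap of 0.924 of the range. It also had 11.9 capillary cells per venous cell, against 35.4 to 41.5 in those 3 mice, while its share of all cells, 1.58%, lay inside their range. In all, 30 groups of 4 mice were examined in this way, and chance alone flags about 1 in 20.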

How the results depend on the processing

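The values below are p-values adjusted as in the report unless another quantity is named, and the cause of a changed call was not tested.

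For the venous share of all cells over time, the value was 0.00687 with BBKNN labels, 0.000377 with Scanorama labels, 0.00394 as a centred log ratio, 0.0371 in edgeR without TMM and 0.00952 with TMM, all past the threshold and with a lower share in the largest difference. With labelled cells that were not immune as the denominator it was 0.689 with the opposite sign. Scanorama called only 48 cells venous in all 21 mice, and 27 of the 35 shared with Harmony came from uninjured mice. Its values therefore rest on very few injured cells. Of the contrasts of 3.5 dpi with uninjured muscle and of 7 with 3.5 dpi, both missed the threshold with BBKNN labels (0.0503) and with the stricter filter (0.0512). In each case the unadjusted p was still the smallest that these group sizes allow. For the venous share of endothelium, the sign was opposite with BBKNN labels at 1 and 2 dpi (1 for both), with the stricter filter at 1, 3.5 and 7 dpi (0.943 each) and with Scanorama labels over time (0.0249). The venous to capillary ratio had the opposite sign with Scanorama labels (0.27).

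Leaving out each mouse in turn gave 0.0111 to 0.12 for the share of all cells over time, 0.0464 to 0.337 at 1 dpi, 0.0657 to 0.0917 at 3.5 dpi and 0.0979 to 0.138 for 7 against 3.5 dpi. At 3.5 dpi the mice left in stayed fully separated, and for 7 against 3.5 dpi groups that small cannot give a p under 0.05. The same step gave 0.0444 to 0.607 for the ratio to capillary cells, 0.818 to 0.971 for the share of endothelium at 7 against 3.5 dpi and 0.142 to 0.408 for the label kept by BBKNN. Between 2 and 5 per-cell measures passed in venous cells, 5 of them without 1 dpi replicate B, and 0 to 1 passed in the difference from capillary cells. The transcription factor share ranged from 0.0465 to 0.203, and the ribosomal protein share against capillary cells from 0.883 to 0.996. The heat shock share (0.0127 to 0.0225) and the mitochondrial share (0.00246 to 0.0381) passed without any 1 mouse.

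Under the stricter filter the largest difference over time turned its sign for UMIs (0.866), genes (0.917) and the transcription factor share (0.0373), and for genes against capillary cells (0.811). With means over cells it turned for the protein-coding share against capillary cells (0.839). With capillary cells matched on UMIs, the log2 difference was 0.0184 for UMIs, as the matching makes it, and -0.0363 for genes, and the ribosomal and protein-coding differences were 3.12 and 0.343 percentage points.

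The replicate letter as a block left 1 per-cell measure past the threshold, the mitochondrial share (0.0451), as the heat shock share (0.0623) and protein-coding share (0.0604) missed it. No other call over time changed under the block. Mice of several time points were in part collected on the same day, and the sources used here do not say whether a letter marks such a day. Over 48 pairs of mice with the same letter, the mean correlation of their deviations was -0.0172, and 4 of 21 mice correlated best with their own letter, so the block was not used in the report. Few venous cells per mouse, 6 to 24 at 1 and 3.5 dpi, limit every value at those time points.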

Other observations

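The noncoding transcript sets were examined after their values had been seen, and the differences between labels carry no test. Long intergenic noncoding RNAs took 1.31% of venous UMIs on average and 1.79% of capillary UMIs, and the venous share was the lower in 19 of 21 mice. Antisense transcripts were lower in venous than in capillary cells in 20 of 21 mice, with means of 0.0759% and 0.0943% of UMIs. Over time, the antisense share of venous cells did not pass the test (permutation F test, adjusted p = 0.0809), and neither did that of lncRNAs from bidirectional promoters (adjusted p = 0.087). The latter averaged 0.0172% ± 0.00517 (SD, n = 4) without injury and 0.0033% ± 0.00416 (SD, n = 4) at 1 dpi, and those groups did not overlap. At 1 dpi the medians rest on 9 to 24 cells per mouse and were 0 in replicates A and B, so these values lie near the floor of detection.

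Ranked by median UMIs among the types with at least 5 cells in the same mouse, 15 to 23 types, venous cells took a place between 2 and 14 from the top, with a median of 9. By heat shock share their place was between 2 and 19. Their median UMIs lay above those of all cells of the library in 13 of 21 mice.

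The 35 cells that Harmony and Scanorama both called venous came from uninjured (27), 1 dpi (2), 5 dpi (3) and 7 dpi (3) mice, with 0 at 2 and 3.5 dpi. The number of genes in a venous cell ran from 531 to 7316.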
